A study of Mus musculus with 17 samples.

Results

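The genes described here reached a transient maximum 1 day after retinoic acid (RA) was added to wild-type mouse embryonic stem cells. They are the protein-coding genes whose wild-type mean at day 1 was at least 10 TPM (a transcript level scaled by gene length and library size) and at least 2 times both the wild-type mean at day 0 and that at day 3. This gave 177 genes of the 22046 protein-coding genes in the table, which lists 54532 genes in all, and of the 9263 protein-coding genes at 10 TPM or more in wild-type cells at day 1. Genes of the *Hox*, *Cyp26*, *Wnt* and *Fox* families and *Stra8* were left out by symbol, which removed 6 genes that met the thresholds (*Foxh1*, *Foxi3*, *Foxn4*, *Hoxa7*, *Hoxb5* and *Stra8*). The wild-type values chose the genes, so the wild-type course, and with it every comparison of the knockout with wild-type cells, is given as a description without a test. The changes between days within the *Usb1* knockout use libraries that the choice did not use, and these were tested.

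The data are bulk RNA sequencing of 17 libraries of R1/E cells, a mouse embryonic stem cell line, collected at day 0, before differentiation, and at day 1 and day 3 of RA treatment. The groups were wild-type cells at day 0 (2 biological replicates), day 1 (3) and day 3 (3), and *Usb1* knockout cells at the same days (3 each). *Usb1* encodes an exonuclease that trims the tail of the U6 small nuclear RNA of the spliceosome, and it was disrupted by CRISPR/Cas9 editing. The knockout is represented by the single line KO-1, and clonal variation cannot be told apart from the effect of the edit. In bulk RNA, fewer cells that express a gene and less RNA per cell cannot be told apart either.

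Reads recovered from the TPM values numbered 15404379 to 17300189 per library, and 3 libraries stood apart in the low range. Genes with a single read numbered 239 and 1352 in the 2 wild-type day 0 libraries and 1224 in knockout day 3 replicate 1, against 2150 to 2467 in the others. Both libraries behind the wild-type day 0 means are among them. Of the 177 genes, 13 were at 0 TPM in wild-type day 0 replicate 1 and above 0 in replicate 2, and without replicate 1 the thresholds gave 165 genes, 159 of them among the 177. *Usb1* RNA was between 14.7 and 21.4 TPM in the 9 knockout libraries and between 31.97 and 56.9 TPM in the 8 wild-type libraries, so the genotypes did not overlap. The edited allele still makes an mRNA, so this checks the labels only in part. *Pou5f1*, *Nanog* and *Sox2*, the core pluripotency factors, were high at day 0 in both genotypes and lower at day 3. *Pou5f1* stood at 1382 ± 15.4 TPM in wild-type cells (SD, n = 2) and 1390 ± 97.7 TPM in the knockout (n = 3) at day 0. At day 3 it stood at 66.6 ± 7.18 and 93.7 ± 2.62 TPM (n = 3 each). *Nanog* stood at 22.6 ± 2.16 and 87.2 ± 5.70 TPM and *Sox2* at 115 ± 7.53 and 223 ± 22.3 TPM at day 3. For each of these genes, every knockout library at day 3 lay above every wild-type library.

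As background, RA enters the nucleus and binds RAR and RXR receptors, which sit on DNA as pairs at repeated hexamers and switch genes on once the ligand is present. In embryonic stem cells the ligand ends self-renewal, and target genes respond in waves: some are switched on directly and stay on, and others are expressed only for a short window while cells pass from the pluripotent state to a differentiated one.

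The promoters of the sharpest peaks are shown first, as the sequence before annotated starts of these genes. Which start was used at day 1 was not measured. RefSeq promoter windows (GRCm38.p6, from 250 bases before to 50 bases after a transcription start) were matched by symbol for 133 of the 177 genes, with 177 windows in all. The RAR hexamer was searched on both strands as AGGTCA, as the variant GGGTCA with another first base, as AGTTCA with another inner base and as GGTTCA with both changes. It was found in 38.4% of the windows of these genes and in 43.7% of all 32851 windows, and direct repeats of it with a gap of 5 bases (DR5), of 2 (DR2) or of 1 (DR1) were found in 0 of the 177 windows and in 0.0974%, 0.268% and 0.222% of all windows. The TATA box TATAAA was in 9.04% against 13.6%, the CCAAT box CCAAT in 35.0% against 37.4%. The Tcf and Lef site (CTTTGAT, or CTTTGAA in its place) was in 5.65% against 8.65%, the AP-1 site TGAGTCA in 5.65% against 5.2%, the E-box CACGTG in 5.65% against 7.15% and the cyclic AMP element TGACGTCA in 1.13% against 1.79%. The windows of these genes had a median GC content of 60.0% and a ratio of observed to expected CpG of 0.576, beside 52.7% and 0.384 over all windows. A match is a description of letters, and the lack of one says only that these letters are not in this window.

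The 250 bases before the start are printed for the 4 genes with the largest wild-type peak ratios among those that have a window, in the order of that ratio, each read 5′ to 3′ on the strand of the gene, with hexamers on either strand in capitals.
Aurkc, chr7:6995135-6995384, + strand: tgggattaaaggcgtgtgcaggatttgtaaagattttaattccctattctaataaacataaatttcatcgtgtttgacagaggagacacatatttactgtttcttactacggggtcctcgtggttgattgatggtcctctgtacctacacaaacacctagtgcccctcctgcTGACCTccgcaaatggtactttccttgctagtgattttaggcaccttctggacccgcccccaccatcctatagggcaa
Neurog3, chr10:62132840-62133089, + strand: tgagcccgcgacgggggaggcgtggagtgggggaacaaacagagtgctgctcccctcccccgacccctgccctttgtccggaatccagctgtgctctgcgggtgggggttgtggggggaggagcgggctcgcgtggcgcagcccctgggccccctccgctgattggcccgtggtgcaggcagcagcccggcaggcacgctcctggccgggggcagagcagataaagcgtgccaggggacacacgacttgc
Cyp11a1, chr9:58014702-58014951, + strand: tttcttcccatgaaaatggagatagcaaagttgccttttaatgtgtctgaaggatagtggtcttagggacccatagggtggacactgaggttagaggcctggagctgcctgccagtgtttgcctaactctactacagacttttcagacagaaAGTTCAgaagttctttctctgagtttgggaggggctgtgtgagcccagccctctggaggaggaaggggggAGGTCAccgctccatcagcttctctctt
Olig3, chr10:19356289-19356538, + strand: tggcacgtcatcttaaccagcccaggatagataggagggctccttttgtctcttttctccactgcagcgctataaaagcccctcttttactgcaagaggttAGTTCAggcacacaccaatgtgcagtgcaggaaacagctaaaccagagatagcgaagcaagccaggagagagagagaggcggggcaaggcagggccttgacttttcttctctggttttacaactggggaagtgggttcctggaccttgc
*Aurkc* has 1 hexamer, on the opposite strand, that begins 78 bases before the start, *Cyp11a1* has 2, at 98 and 28 bases, *Olig3* has 1, at 149 bases, and *Neurog3* has 0 in this stretch.
The *Cyp11a1* start in RefSeq lies inside the longer gene span that the deposited annotation gives.

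In wild-type cells, the 177 genes had a median of 9.14 TPM at day 0, 29.4 TPM at day 1 and 7.1 TPM at day 3. The day 1 mean was a median of 2.64 times the larger of the other 2 means, and for 170 genes every day 1 library lay above every day 0 and every day 3 library. By day 3, 100 of the genes had a mean below their day 0 mean and 77 had one above it. This split has no threshold, so near-equal means were counted too, as for *Mef2b* (5.33 TPM at day 0 and 5.34 TPM at day 3). Just inside the threshold of 2 times were *Gm17720* (2.01), *Map2k6* (2.02) and *Zmym3* (2.03), and just outside were *Fam117a*, *Ficd* and *Bcl6b* (each 1.99). Just inside the minimum of 10 TPM were *Rwdd2a* (10.4), *Lat* (10.5) and *1700003E16Rik* (10.5), and just outside were *Plce1*, *Zic5* and *Sncb* (each 9.44 or 9.43 TPM).

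The day 1 burst was also seen in the knockout. Its lower height there for most of the genes is a description, since the choice by wild-type day 1 values favours it. Of the protein-coding genes at 10 TPM or more in wild-type cells at day 1, 68.7% had a lower knockout mean at that day. In knockout cells, 125 of the 177 genes rose from day 0 to day 1 and 0 fell (the 1 negative change, of *Sumo2*, had an adjusted p of 0.662, by limma on log2(TPM + 1)). A call needed both an adjusted p below 0.05 and a change of 2-fold or more. Over all 21871 genes tested, 4.07% were called higher and 2.87% lower in that comparison. From day 1 to day 3, 104 of the 177 genes fell and 1 rose, where 5.73% of all genes tested fell and 9.6% rose. These are 58.8% and 0.565% of the 177 genes. Of the 9263 protein-coding genes at 10 TPM or more in wild-type cells at day 1, 5.11% rose and 1.73% fell in the first step, and 8.33% rose and 5.89% fell in the second. A full peak, called higher at day 1 than at day 0 and than at day 3, was found for 81 of the 177 genes (45.8%), against 0.919% of all genes tested (201 genes) and 1.04% of the protein-coding genes at 10 TPM or more in wild-type cells at day 1. Both steps use the knockout day 1 libraries, so they are not independent of each other. The median log2 change over the 177 genes was 1.39 from day 0 to day 1 and -1.13 from day 1 to day 3, beside 0.02 and 0.04 over all genes tested. Without knockout day 3 replicate 1, 97 genes fell from day 1 to day 3 and 74 made a full peak.

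**Figure D1:**
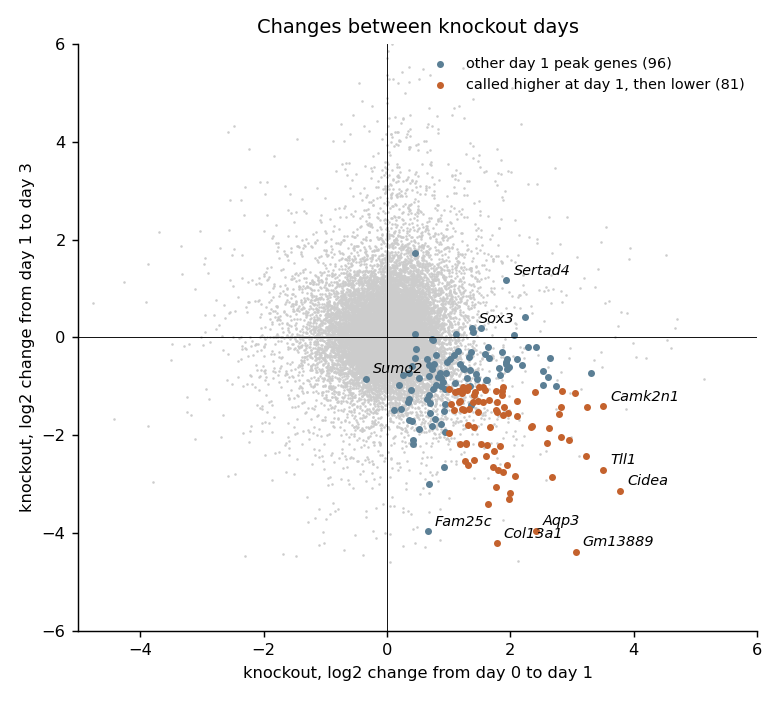
Log2 change in the knockout from day 0 to day 1 (horizontal axis) and from day 1 to day 3 (vertical axis), each point a gene. Grey points are all genes tested (11 lie outside the axes), orange points are the 81 day 1 peak genes called in both steps and blue points are the other 96, and 168 of the 177 lie below the horizontal line and 176 to the right of the vertical line.

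By mean TPM alone, 167 of the 177 genes had their highest knockout mean at day 1, 9 had it at day 3 and 1 had it at day 0. Of the 9980 protein-coding genes that reached 10 TPM in a knockout group, 21.8% had their highest mean at day 1. When the thresholds were applied to the knockout means, 89 genes met them, of which 71 were among the 177: 40.1% of the wild-type list and 79.8% of the knockout list. The ratio of the day 1 mean to the larger of the other means was a median of 2.03 in the knockout, and it was below the wild-type ratio for 146 genes and above it for 31. The choice of genes required a wild-type ratio of 2 or more and set no limit in the knockout. This favours a lower ratio in the knockout, so these counts are a description. The share of genes with a full knockout peak was 30.9% of the 110 genes with a wild-type ratio of 2 to 3, 63.4% of the 41 with a ratio of 3 to 5 and 80.8% of the 26 with a ratio over 5.

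**Figure D2:**
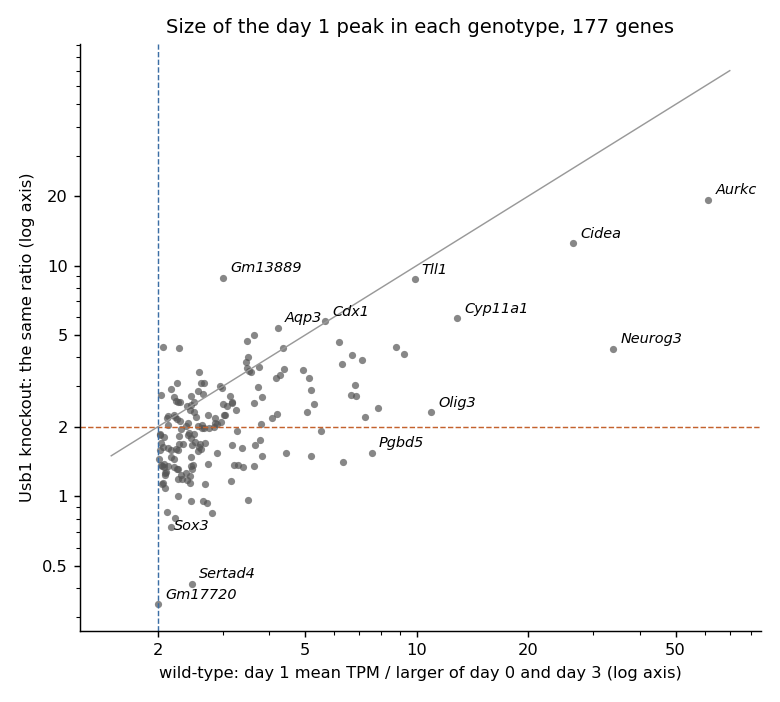
Day 1 mean TPM divided by the larger of the day 0 and day 3 means in wild-type cells (horizontal, log axis) and in the knockout (vertical, log axis) for each of the 177 genes. The dashed lines mark the ratio of 2 and the grey line equal ratios, and 146 genes lie below the grey line. The choice of genes required a wild-type ratio of 2 or more, which favours points below the grey line.

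The 686 genes that also at least doubled by day 1 in wild-type cells, at 10 TPM or more, but did not fall 2-fold by day 3 are set beside them. Genes that fell by just under 2-fold, such as *Ficd* and *Fam117a*, are included. In the knockout, 43.6% of the 686 genes rose from day 0 to day 1. From day 1 to day 3, 0.875% fell and 37.6% rose, and 0.437% (3 genes) made a full peak. At day 3, 75.7% of them were higher than at day 0 in the knockout, against 20.3% of the day 1 peak genes (36 genes), while 12.4% of the day 1 peak genes (22 genes) were lower. The background at day 3 against day 0 was 13.8% higher and 8.04% lower over all genes tested, and 14.0% and 7.22% over the protein-coding genes at 10 TPM or more. The split of 36 higher and 22 lower depends on the scaling between libraries: it was 29 and 37 after scaling to an equal median and 33 and 33 after quantile normalization.

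The transcription factor genes *Neurog3* and *Olig3* were among the 10 largest wild-type ratios. *Neurog3* (ENSMUSG00000044312, chr10:62133090-62134763, GRCm38), a basic helix-loop-helix factor of endocrine and neural precursors, stood in wild-type cells at 0 and 2.16 TPM at day 0, 34.7, 33.5 and 41.7 TPM at day 1 and 0.129, 0.379 and 0 TPM at day 3. In the knockout it stood at 2.72, 0.625 and 1.82 TPM at day 0, 7.98, 6.66 and 7.91 TPM at day 1 and 0.231, 0 and 1.02 TPM at day 3. All 3 knockout libraries at day 1 lay far below the wild-type ones, at a mean of 20.5% of the wild-type mean, and the gene rose (log2 change 1.72 ± 0.39 SE, adjusted p = 0.00379) and fell (-2.65 ± 0.39, adjusted p = 5.06e-05) in the knockout. The rise was not called with a pseudocount of 0.1 (adjusted p = 0.124). *Olig3* (ENSMUSG00000045591, chr10:19356533-19358604), a factor of dorsal neural tube progenitors, was listed at 0 in both wild-type day 0 libraries, at 27.7, 26.6 and 29.4 TPM by day 1 and at 1.56, 2.86 and 3.25 TPM by day 3. Its knockout libraries read 0.209, 0 and 0 TPM, then 5.73, 5.67 and 6.95 TPM and then 1.78, 2.64 and 3.49 TPM. *Olig3* rose in the knockout by day 1 (2.74 ± 0.21, adjusted p = 2.28e-07) and was still higher at day 3 than at day 0 (1.74 ± 0.21, adjusted p = 4.95e-06). Its step from day 1 to day 3 was just short of 2-fold on the scale of log2(TPM + 1) (-0.99 ± 0.21). By mean TPM, its knockout level at day 1 was 2.32 times that at day 3, and the fall was called under 9 of the alternatives.

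*Sox1* and *Sox3*, both SoxB1 factors of neural progenitors, took different courses in the knockout. *Sox1* (ENSMUSG00000096014, chr8:12395295-12400126) read 9.49 and 9.81 TPM, then 26.2, 26.1 and 24.9 TPM and then 1.61, 1.62 and 1.44 TPM in wild-type cells. Its knockout libraries read 12.8, 15.03 and 12.8 TPM, then 26.1, 27.1 and 26.8 TPM and then 3.17, 4.10 and 2.99 TPM. The genotypes overlapped at day 1, and in the knockout *Sox1* fell from day 1 to day 3 (-2.65 ± 0.10, adjusted p = 5.42e-11) after a first step below 2-fold (0.93 ± 0.10). *Sox3* (ENSMUSG00000045179, chrX:60891366-60893430) read 23.6 and 8.53 TPM, then 44.3, 38.97 and 40.8 TPM and then 19.7, 20.4 and 18.5 TPM in wild-type cells, the day 0 libraries differing over 2-fold. Its knockout values were 2.62, 2.43 and 3.15 TPM, then 8.73, 7.85 and 9.39 TPM and then 11.1, 10.9 and 8.24 TPM, below every wild-type library of the same day at all 3 days. In the knockout it rose by day 1 (1.37 ± 0.24, adjusted p = 0.000593) and did not pass the test for a fall afterwards (0.19 ± 0.24, adjusted p = 0.574). *Zic2*, a zinc finger factor of the neural plate, peaked in both genotypes, with means of 10.7 TPM in wild-type cells and 6.86 TPM in the knockout at day 1, and it made a full knockout peak. So did *Tlx2*, a homeobox factor of neural crest derivatives, at 33.1 ± 3.64 TPM (SD, n = 3) in the knockout and 73.3 ± 8.74 TPM in wild-type cells.

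*Cdx1* (ENSMUSG00000024619, chr18:61018862-61036199), a caudal homeobox factor and known direct target of RA and Wnt signalling, was among the few genes with a higher burst in the knockout. Wild-type libraries read 3.47 and 7.48 TPM, then 27.8, 30.2 and 35.2 TPM and then 4.94, 4.11 and 5.57 TPM. Knockout libraries read 6.19, 4.90 and 5.21 TPM, then 61.4, 60.00 and 55.5 TPM and then 11.5, 10.4 and 8.87 TPM. The genotypes overlapped at day 0, and at day 1 and day 3 every knockout library lay above every wild-type library. Within the knockout the rise was 3.22 ± 0.19 on the log2 scale (adjusted p = 1.49e-08) and the fall -2.42 ± 0.19 (adjusted p = 8.77e-08). Of the 24 tested genes of RA receptors, binding and metabolism, of which *Cdx1* is the only day 1 peak gene, 13 rose and 1 fell from day 0 to day 1 in the knockout, and 13 rose and 2 fell from day 1 to day 3. Of the 21 tested genes of the caudal epiblast and primitive streak, 2 rose and 4 fell in the first step, and the full knockout peak was called for *Cdx1* and *Eomes*.

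**Figure D3:**
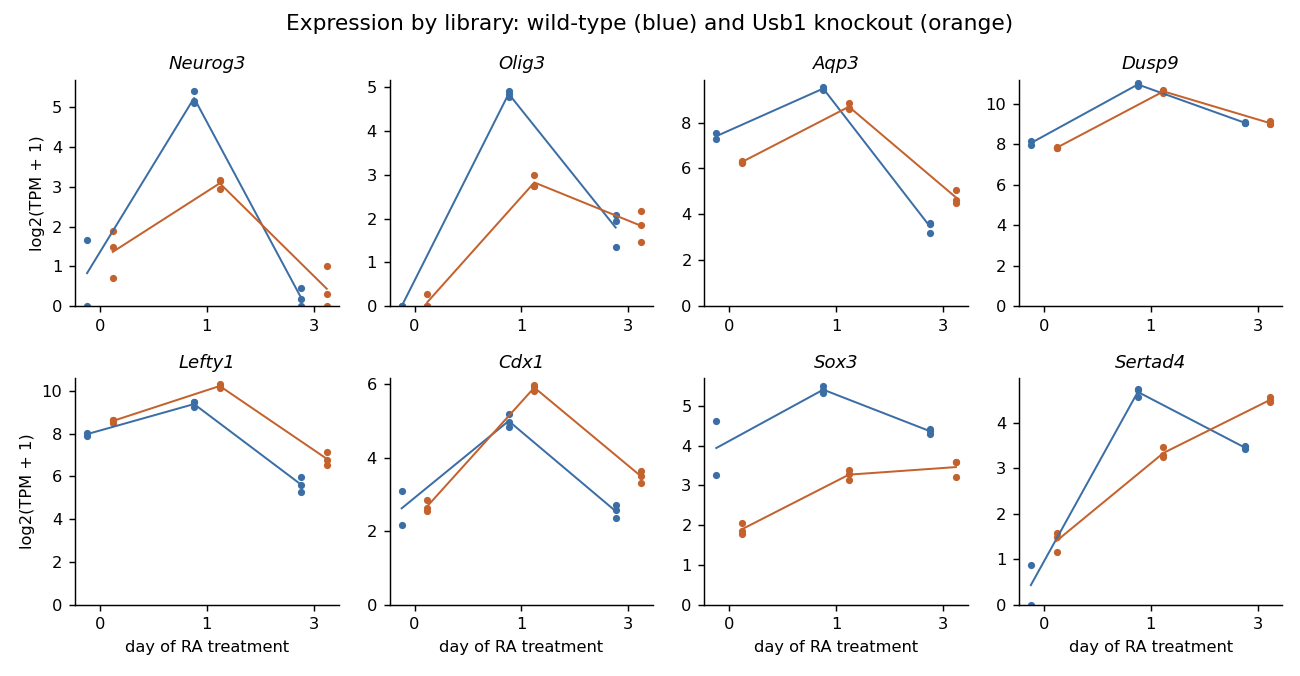
Expression of 8 of the genes in every library as log2(TPM + 1) (vertical) at day 0, 1 and 3 of RA treatment (horizontal, evenly spaced categories). Blue points are wild-type and orange points Usb1 knockout libraries, lines join the group means, and the knockout points at day 1 lie below the wild-type ones for Neurog3, Olig3, Aqp3, Dusp9, Sox3 and Sertad4 and above them for Lefty1 and Cdx1.

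The genes on the signalling lists were *Lefty1*, *Skil* and *Sfrp2*, which all encode inhibitors. *Lefty1* (ENSMUSG00000038793, chr1:180935022-180938400), an extracellular inhibitor of Nodal, read 241 and 263 TPM, then 705, 709 and 599 TPM and then 48.3, 62.4 and 37.2 TPM in wild-type cells. In the knockout it read 398, 367 and 393 TPM, then 1291, 1123 and 1197 TPM and then 108, 142 and 92.8 TPM, above every wild-type library at each day. It rose (1.64 ± 0.16, adjusted p = 3.14e-06) and then fell below its day 0 level (-1.77 ± 0.16 at day 3 against day 0, adjusted p = 2.96e-07) in the knockout. *Skil*, a repressor of Smad signalling, rose to 77.1 ± 7.16 TPM in the knockout (127 ± 4.87 TPM in wild-type cells) and its later step fell short of the 2-fold limit (-0.34 ± 0.11, adjusted p = 0.0223). Of the 25 tested Nodal, activin and BMP targets, 5 rose and 3 fell in the knockout from day 0 to day 1, and 7 rose and 6 fell from day 1 to day 3. *Sfrp2*, a secreted Wnt antagonist, made a full peak in the knockout at 25.1 ± 1.63 TPM, above the 17.5 ± 1.89 TPM of wild-type cells, while of the 18 tested Wnt targets 3 rose and 2 fell in the first step.

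*Dusp9* (ENSMUSG00000031383, chrX:73639419-73643514), a phosphatase that inactivates ERK, had the highest wild-type day 1 mean of all 177 genes, 2002 TPM. Wild-type libraries read 248 and 287 TPM, then 2102, 1890.2 and 2012 TPM and then 527, 529 and 556 TPM. Knockout libraries read 222, 222 and 236 TPM, then 1635, 1586 and 1514 TPM and then 514, 562 and 509 TPM, below the wild-type libraries at day 0 and day 1 and overlapping with them at day 3. The knockout changes were 2.79 ± 0.06 (adjusted p = 5.91e-13) and -1.58 ± 0.06 (adjusted p = 5.53e-11). None of the 24 tested FGF and ERK feedback genes listed (among them *Dusp* genes other than *Dusp9*, and *Spry*, *Spred* and *Etv* genes) was a day 1 peak gene, and 3 of them rose and 5 fell in the first step in the knockout.

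*Ptch1* and *Hhip*, both hedgehog inhibitors that were named after their values were seen, took different courses in the knockout. *Ptch1*, the hedgehog receptor, read 253, 192 and 199 TPM at day 1 in wild-type cells and 185, 173 and 141 TPM in the knockout. There it rose (1.87 ± 0.15, adjusted p = 3.30e-07) and remained higher at day 3 than at day 0 (1.56 ± 0.15, adjusted p = 4.07e-07). *Hhip*, which binds and sequesters hedgehog ligands, was higher in every knockout library (21.97, 19.6 and 18.4 TPM) than in every wild-type library (16.97, 13.4 and 14.2 TPM) at day 1 and made a full knockout peak. *Tll1*, a protease of the BMP1 family, and *Gfra1*, a co-receptor for GDNF, were among the 10 genes with the largest wild-type ratios. *Tll1* (ENSMUSG00000053626, chr8:64014931-64206271) reached 14.5, 13.4 and 12.3 TPM in wild-type cells and 21.8, 22.7 and 16.97 TPM in the knockout at day 1, with the second largest rise of the 177 genes in the knockout (3.50 ± 0.23, adjusted p = 3.77e-08). *Gfra1* (ENSMUSG00000025089, chr19:58235604-58455909) reached 33.95, 28.8 and 27.95 TPM and 12.9, 11.5 and 11.5 TPM, starting from 4.09 and 2.60 TPM and 0.633, 0.535 and 0.555 TPM. *Epo*, the hormone of red cell formation, reached 15.4, 11.7 and 12.6 TPM in wild-type cells and 7.44, 6.16 and 3.37 TPM in the knockout. *Sema3e*, a secreted guidance cue, was higher in the knockout at day 1 (29.8, 25.9 and 24.04 TPM against 23.95, 19.2 and 19.8 TPM). It stayed above its day 0 level at day 3 (2.58 ± 0.20, adjusted p = 5.69e-08), as did 18, itself included, of the 24 tested genes of cell guidance and migration.

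*Cyp11a1* (ENSMUSG00000032323, chr9:58006411-58027023), the mitochondrial enzyme that starts steroid synthesis, read 1.13 and 3.71 TPM, then 33.4, 29.6 and 30.4 TPM and then 0.810, 1.06 and 0.483 TPM in wild-type cells. In the knockout the values were 1.35, 1.44 and 1.31 TPM, then 8.04, 8.35 and 7.95 TPM and then 0.282, 0.663 and 0.531 TPM, so that the day 1 mean was 26.1% of the wild-type one. It rose (1.94 ± 0.23, adjusted p = 1.80e-05) and fell (-2.62 ± 0.23, adjusted p = 3.12e-07) in the knockout. *Por*, the reductase that passes electrons to microsomal P450 enzymes, read 394, 381 and 358 TPM at day 1 in wild-type cells and 308, 271 and 268 TPM in the knockout, and it too made a full knockout peak. *Cidea* (ENSMUSG00000024526, chr18:67343604-67367785), a lipid droplet protein, went from 0.558, 1.62 and 0.746 TPM to 26.8, 24.4 and 25.2 TPM and back to 2.16, 1.56 and 2.38 TPM in the knockout. This was the largest knockout rise of the 177 genes (3.78 ± 0.30, adjusted p = 3.81e-07), and the wild-type libraries read 49.8, 45.8 and 41.2 TPM at day 1. *Aqp3* (ENSMUSG00000028435, chr4:41092722-41098183), a channel for water and glycerol, fell further after day 1 than it had risen. Wild-type libraries read 155 and 184 TPM, then 747, 710.1 and 686 TPM and then 11.3, 10.9 and 7.99 TPM. Knockout libraries read 74.7, 78.1 and 77.6 TPM, then 462, 391 and 386 TPM and then 23.9, 32.4 and 21.9 TPM, with a fall of -3.95 ± 0.14 (adjusted p = 1.45e-11). The knockout was below wild-type cells at day 0 and day 1 and above them at day 3, with no overlap of libraries at any of the days. *Egln3*, a prolyl hydroxylase of the oxygen-sensing pathway, reached 71.99, 51.9 and 63.7 TPM in wild-type cells and 45.2, 33.7 and 36.7 TPM in the knockout, where its full peak was called. It was the only day 1 peak gene among the 21 tested hypoxia and glycolysis genes, of which 4 rose in the first step.

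*Aurkc* (ENSMUSG00000070837, chr7:6995300-7003091), the Aurora kinase of meiotic cells, had the largest ratio of all. It was listed at 0 in both wild-type day 0 libraries, at 9.52, 11.6 and 13.9 TPM by day 1 and at 0.142, 0.278 and 0.152 TPM by day 3. In the knockout it read 0.427, 0.275 and 0.570 TPM, then 9.61, 8.52 and 6.43 TPM and then 0.509, 0.299 and 0 TPM, overlapping with wild-type cells at day 1. Its rise in the knockout was 2.68 ± 0.20 (adjusted p = 2.11e-07) and its fall -2.86 ± 0.20 (adjusted p = 2.94e-08). *Dazl*, an RNA-binding protein of germ cells, read 26.2, 26.5 and 25.3 TPM in wild-type cells and 27.2, 24.1 and 26.3 TPM in the knockout at day 1. *Slc25a31*, the ADP/ATP carrier of sperm, read 12.3, 10.7 and 12.4 TPM and 11.5, 16.2 and 13.3 TPM. Both overlapped between the genotypes at day 1 and made a full knockout peak. That call was made for 4 of the 33 tested germline and meiosis genes (*Dazl*, *Slc25a31*, *Sycp3* and *Tex101*), and 10 of the 33 rose and 3 fell in the first step. *Dmrt1* and *Dmrtb1*, DM domain factors of the gonad that were named after their values were seen, made full knockout peaks at 58.7 ± 3.89 and 19.8 ± 1.02 TPM, below the 92.8 ± 5.61 and 39.1 ± 5.69 TPM of wild-type cells (SD, n = 3 each). *Plk3*, a stress-responsive kinase and p53 target, read 249, 235 and 237 TPM in wild-type cells and 123, 131 and 127 TPM in the knockout at day 1. It was below its day 0 level by day 3 in the knockout (-1.30 ± 0.07, adjusted p = 1.37e-09). It was the only day 1 peak gene among the 22 tested p53 targets, of which 3 rose and 1 fell in the first step. *Cdkn1c*, an inhibitor of cyclin-dependent kinases, rose in the knockout from 42.7 ± 5.79 to 186 ± 12.2 TPM and stood at 136 ± 13.01 TPM at day 3, above its day 0 level (1.65 ± 0.10, adjusted p = 4.05e-09), where wild-type cells had returned to 81.7 ± 3.74 TPM.

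Several of the most abundant genes have less well known roles in these cells. *Aard* (ENSMUSG00000068522, chr15:52040107-52045722) read 67.7 and 59.1 TPM, then 563, 565 and 549 TPM and then 56.9, 63.02 and 48.01 TPM in wild-type cells. Its knockout libraries read 40.5, 37.7 and 33.8 TPM, then 218, 231 and 241 TPM and then 64.9, 50.8 and 39.9 TPM. The knockout burst was thus 41.1% of the wild-type mean at day 1, and both its rise (2.59 ± 0.14, adjusted p = 5.18e-09) and its fall (-2.15 ± 0.14, adjusted p = 1.03e-08) were called. *Calcoco2*, which encodes an autophagy receptor, read 656, 617 and 667 TPM and 452, 429.5 and 459 TPM at day 1 from nearly equal day 0 levels of 61.8 ± 0.652 TPM (SD, n = 2) and 62.6 ± 1.60 TPM (SD, n = 3). *Cotl1*, an actin-binding protein, read 793, 778 and 829 TPM and 538, 519 and 528 TPM, and in the knockout it stayed above its day 0 level at day 3 (1.19 ± 0.07, adjusted p = 2.40e-09). *Camk2n1*, an inhibitor of the kinase CaMKII, rose from 6.58 ± 0.576 to 84.4 ± 1.94 TPM in the knockout (3.50 ± 0.17, adjusted p = 2.05e-09). *R3hdml* rose from 4.71 ± 0.790 to 53.1 ± 8.26 TPM in the knockout, against 25.4 ± 4.96 and 174 ± 5.03 TPM in wild-type cells. *Grasp* and *H1f0*, a scaffold protein and a linker histone, stood in the knockout at 84.5% and 85.4% of the wild-type mean at day 1, and *H1f0* missed the 2-fold limit in both steps in the knockout (0.88 ± 0.07 and -0.99 ± 0.07).

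The knockout beside wild-type cells is a description, since the choice of genes with a high wild-type mean at day 1 and a low one at day 0 and day 3 favours a lower knockout value at day 1 and a higher one at the other days. At day 1, the mean TPM of the knockout was below that of wild-type cells for 146 of the 177 genes and above it for 31. The median was 69.1% of the wild-type level. Of the 9263 protein-coding genes at 10 TPM or more in wild-type cells at day 1, 68.7% had a lower knockout mean as well. Every knockout library lay below every wild-type library for 115 of the 177 genes (65.0%) and above for 19 (10.7%). Over all genes tested these shares were 30.4% and 9.41%. The shares were 44.1% and 14.4% of the 9263 protein-coding genes at 10 TPM or more. They were 73.8% and 4.81% of the 686 genes that rose without a 2-fold fall. At day 3, 46 of the 177 genes had a lower and 131 a higher mean TPM in the knockout, without overlap for 20 (11.3%) and 70 (39.5%). Of the 9263 protein-coding genes, 46.4% had a lower knockout mean at day 3. The shares without overlap at day 3 were 11.0% and 11.0% of all genes tested. They were 13.6% and 15.5% of the protein-coding genes at 10 TPM or more, and 21.6% and 16.2% of the 686 genes. At day 0, 107 of the 177 genes were lower and 70 higher by mean TPM, without overlap for 63 (35.6%) and 30 (16.9%). Of the 9263 protein-coding genes, 59.6% had a lower knockout mean at day 0. The shares without overlap at day 0 were 21.3% and 15.3% of all genes tested. They were 3005 (32.4%) and 1576 of the 9263 protein-coding genes, and 22.9% and 24.5% of the 686 genes. The median difference on the log2 scale, knockout minus wild-type, was -0.12 at day 0, -0.52 at day 1 and 0.21 at day 3, and over all genes tested it was 0, -0.13 and 0. The day 0 median moved to -0.23 without wild-type day 0 replicate 1 and to -0.014 without replicate 2. The 686 genes that rose in wild-type cells without a 2-fold fall, chosen on the same libraries, had a median difference of -0.43 at day 1 and -0.02 at day 3. They were chosen for not falling by day 3, so they are no control for the day 3 values.

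**Figure D4:**
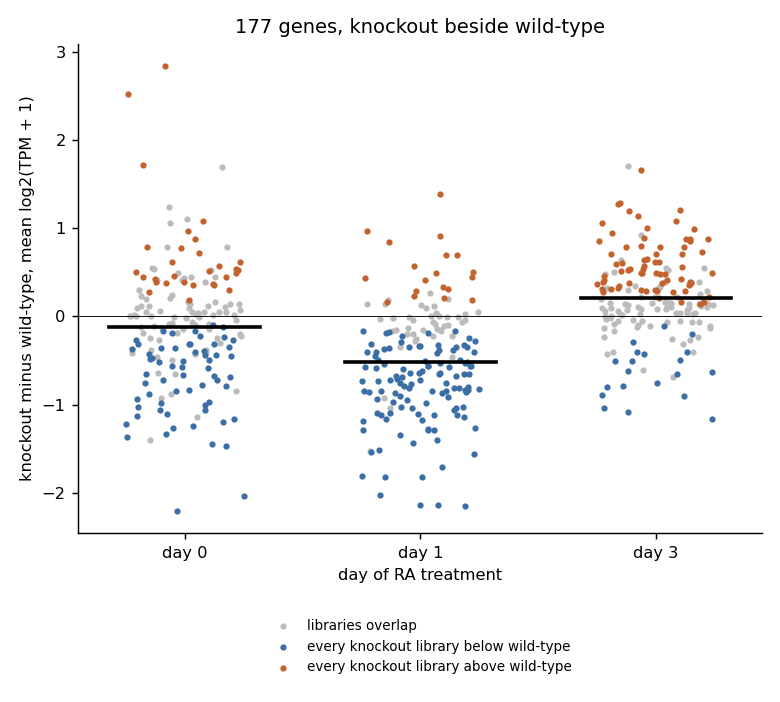
Knockout minus wild-type difference in mean log2(TPM + 1) (vertical) for the 177 genes at each day (horizontal), with black bars at the medians of -0.12, -0.52 and 0.21, the first of which moves between -0.23 and -0.014 when 1 wild-type library is left out. Blue points are genes with every knockout library below every wild-type library, orange points those with every one above, and grey points those whose libraries overlap, and the blue points outnumber the orange at day 1 and the reverse holds at day 3.

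The day 1 difference depends in size on the scaling between libraries. After scaling to an equal median, 116 genes were lower and 61 higher in the knockout at day 1, 92 and 32 of them without overlap (all genes tested, 14.2% and 24.0%), with a median of -0.28 beside 0.04 over all genes tested. At day 0 the direction was lost, with 88 lower and 89 higher, beside 100 and 77 before scaling. At day 3 it was the same, with 46 lower and 131 higher, beside 47 and 130 before scaling. The counts around the scaling use means of log2(TPM + 1). The summed level of the 18 naive pluripotency genes, which moved with the genotype at day 1, was 2557 to 2664 TPM in wild-type libraries and 3240 to 3394 TPM in knockout libraries. For the 24 neural progenitor genes, *Neurog3* and *Sox1* among them, it was 237 to 260 TPM and 168 to 177 TPM at day 1. Both were chosen by their wild-type values, so this sum is not independent of the choice. *Neurog3* had means of 36.6 TPM in wild-type cells and 7.52 TPM in the knockout at day 1. Of the defining markers, *Sox1* stood at 25.8 and 26.7 TPM and *Pax6* at 1.93 and 0.999 TPM. At day 3 the sum over the neural progenitor genes was 252 to 269 TPM and 329 to 384 TPM. At day 1 the germline list was higher in the knockout (638 to 664 and 740 to 794 TPM). So was the summed level of the list of 2-cell-like cells (126 to 135 and 145 to 151 TPM). Its defining markers were lower in the knockout at day 1, without overlap. *Zscan4c* read 1.16 to 2.05 TPM in wild-type libraries and 0.0843 to 0.712 TPM in knockout libraries. *Zscan4d* read 1.74 to 3.30 and 0.653 to 0.803 TPM. The mesoderm list overlapped at day 1 (451 to 504 and 440 to 480 TPM). The summed level of the 22 endoderm genes was 857 to 952 TPM in wild-type libraries and 690 to 751 TPM in knockout libraries at day 1, and 7850 to 8705 TPM and 3661 to 4591 TPM at day 3. Among its markers at day 1, *Gata6* stood at 29.8 ± 1.24 TPM in wild-type cells and 8.51 ± 1.41 TPM in the knockout. *Dab2* stood at 10.7 ± 0.870 and 4.03 ± 0.683 TPM, and *Sox17* at 0.532 ± 0.0585 and 0.427 ± 0.106 TPM (SD, n = 3 each). *Sox17* stood at 39.6 ± 0.879 and 12.2 ± 1.57 TPM at day 3. The summed level of the 16 trophoblast genes was 81.3 to 93.9 TPM in wild-type libraries and 135 to 138 TPM in knockout libraries at day 0. It was 127 to 144 TPM and 149 to 157 TPM at day 1, and 5119 to 5293 TPM and 4884 to 5773 TPM at day 3. Of the 13 trophoblast genes tested, 11 rose and 1 fell from day 1 to day 3 in the knockout. *Gata3* stood at 58.4 ± 3.03 TPM in wild-type cells and 71.6 ± 2.96 TPM in the knockout at day 3, and *Elf5*, a defining marker, at or near 0 in every library. The part of such differences in cell state in the values of the day 1 peak genes was not tested.

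The genes with the lowest knockout level at day 1 relative to wild-type cells were *Crygc*, *Neurog3*, *Sox3*, *Olig3* and *Agmat*, at 19.99% to 21.9% of the wild-type mean. *Crygc* (ENSMUSG00000025952, chr1:65071525-65073689), a lens crystallin, read 27.4, 29.99 and 27.7 TPM in wild-type libraries and 6.75, 4.90 and 5.37 TPM in knockout libraries at day 1, and still rose in the knockout (2.40 ± 0.20, adjusted p = 5.76e-07). *Pgbd5*, a gene derived from a PiggyBac transposase, peaked at 22.5, 16.8 and 18.8 TPM in wild-type cells and read 4.85, 5.12 and 4.34 TPM in the knockout, where neither step was called (0.52 ± 0.25, adjusted p = 0.155, and -0.84 ± 0.25). In all, 37 genes stood below 50% and 7 above 150% of the wild-type mean at day 1. The 7 were *Tll1*, *Cdx1*, *Col13a1*, *Gm13889*, *Lefty1*, *Mef2b* and *Apoc1*. The matching shares over all genes tested were not computed.

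*Mef2b* and *Apoc1* were higher in every knockout library than in every wild-type library before RA was added. *Mef2b*, a MADS-box factor, read 1.34 and 9.33 TPM in wild-type libraries and 29.01, 21.6 and 32.2 TPM in knockout libraries at day 0. At day 1 the values were 13.1, 13.5 and 13.02 TPM and 38.97, 35.7 and 34.2 TPM, and it did not pass the test for a rise in the knockout (0.40 ± 0.37, adjusted p = 0.488). *Apoc1*, an apolipoprotein, read 28.8, 30.95 and 38.8 TPM and then 37.9, 43.6 and 44.9 TPM in the knockout, with wild-type values of 10.7 and 7.89 TPM and 20.7, 20.3 and 21.9 TPM. *Col13a1*, a transmembrane collagen, and *Gm13889* rose and fell in the knockout. *Gm13889* (ENSMUSG00000087006, chr2:93955810-93957201) read 59.05, 73.8 and 72.5 TPM in wild-type libraries and 107, 119.5 and 106 TPM in knockout libraries at day 1. In the knockout it had the largest fall of the 177 genes to day 3 (-4.38 ± 0.23, adjusted p = 1.06e-09). *Col13a1* read 32.3, 30.02 and 28.9 TPM and 54.99, 50.1 and 45.01 TPM at day 1 and fell nearly as far (-4.21 ± 0.16).

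The 96 genes without a full knockout peak fell into 3 sets. In the first, 44 genes rose by day 1 but were not called lower at day 3. The extreme was *Sertad4* (ENSMUSG00000016262, chr1:192844488-192855756), a gene of the SERTA domain family, at 0 and 0.821 TPM, then 25.6, 22.8 and 25.8 TPM and then 10.1, 9.72 and 10.2 TPM in wild-type cells. Its knockout libraries read 1.24, 1.79 and 1.97 TPM, then 8.48, 10.2 and 8.82 TPM and then 21.03, 21.9 and 22.6 TPM, so that it rose in both steps. It is the 1 gene of the 177 called higher at day 3 than at day 1 in the knockout (1.17 ± 0.18, adjusted p = 7.07e-05), a call that was lost with a pseudocount of 0.1, with quantile normalization and with scaling to an equal median. *Rnf144b*, a ubiquitin ligase, *Lpar4*, a receptor for lysophosphatidic acid, and *Tgfbi*, a matrix protein named after its values were seen, also had their highest knockout mean at day 3, at 14.99 ± 2.12, 8.64 ± 1.60 and 74.5 ± 2.90 TPM, with steps from day 1 that did not pass the test (0.41, 0.20 and 0.05 on the log2 scale).

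In the second set, 23 genes fell after day 1 with no call for a rise, among them *Sox1*, *Mef2b*, *Apoc1* and *Fam25c*. *Fam25c* read 148, 156 and 139 TPM, then 212, 236 and 253 TPM and then 15.7, 12.3 and 14.1 TPM in the knockout, a fall of -3.97 ± 0.16 (adjusted p = 9.87e-11). *Nphp4*, a protein of the ciliary transition zone, read 13.2, 13.1 and 13.4 TPM and then 14.2, 15.2 and 13.7 TPM in the knockout, where wild-type cells went from 12.4 and 10.6 to 26.3, 23.3 and 23.2 TPM. *Capsl*, which encodes a calcium-binding protein, stood at 9.59, 12.6 and 12.4 TPM and then 16.3, 13.9 and 10.9 TPM in the knockout. In the third set, 29 genes had neither call. *D630023F18Rik* read 9.58, 6.44 and 8.87 TPM and 8.83, 9.50 and 10.2 TPM in the knockout at day 0 and day 1 and 4.43, 3.41 and 5.42 TPM at day 3. Its second step was just short of 2-fold on the scale of log2(TPM + 1) (-0.97 ± 0.18, adjusted p = 0.000496), and a fall was called under 7 of the alternatives. *Acbd7*, an acyl-CoA binding protein, read 14.2, 7.84 and 8.94 TPM and 14.7, 10.6 and 11.5 TPM, with wild-type day 0 libraries at 0 and 10.6 TPM. *Sumo2*, the ubiquitin-like modifier, was the 1 gene with a higher knockout mean at day 0 than at day 1 (215, 223 and 288 TPM and 229.6, 226 and 132 TPM, log2 change -0.34 ± 0.47, adjusted p = 0.662). Its replicates disagreed by more than 2-fold at wild-type day 3 (58.1, 159 and 41.6 TPM) and knockout day 3 (228, 59.7 and 85.3 TPM).

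Some entries, named here for this reason or after their values were seen, rest on few reads or on reads that could not be assigned with certainty. *Gm17720* reached at most 7 reads in any library, with 32.6, 15.7 and 0 TPM at day 1 in wild-type cells, and *Gm10772* reached at most 17 reads, whereas the median of the highest read number over the 177 genes was 541. *Sumo2* has near-identical processed copies in the genome, *H2-Q6* and *H2-Q7* are near-identical class I genes 9100 bases apart on chromosome 17, and *Tnfsf12* and *Tnfsf13* both lie within *Tnfsfm13* on chromosome 11, so that the authors' counting could split or share their reads. The library kit does not mark strand, so reads of overlapping genes on opposite strands cannot be told apart.

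The genes were spread over the chromosomes, with 17 of 177 on chromosome 4 (9.6%, where 6.8% of the protein-coding genes at 10 TPM or more lie), 11 on chromosome 19 (6.21% against 3.73%) and 10 on the X chromosome (5.65% against 3.25%). A total of 23 pairs lay within 100 kb of each other, among them, named after their values were seen, *Sema7a* and *Cyp11a1* on chromosome 9, 43546 bases apart, *Calcoco2* and *Ttll6* on chromosome 11, 21822 bases apart, and *Tlx2* and *Pcgf1* on chromosome 6, 7576 bases apart. *Sema7a*, a membrane-bound semaphorin next to *Cyp11a1*, had means of 17.5 ± 0.392 TPM in wild-type cells and 11.8 ± 1.56 TPM (SD, n = 3 each) in the knockout at day 1 and made a full knockout peak, as *Cyp11a1* did. The 177 genes had fewer exons than the protein-coding genes at 10 TPM or more, with a median of 6 merged exons beside 10 and a summed exon length of 3026 bases beside 4371 bases. They spanned a median of 15634 bases beside 23002 bases. These are descriptions of the list, with no test.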

How the data were processed

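Gene expression was measured by RNA sequencing in 17 libraries of R1/E cells. Per the labels and the study's methods, libraries were made with a kit that does not mark strand, and the submitters' processing notes name HISAT2 2.1.0, StringTie 1.3.6 and GRCm38.p6. The deposited values are TPM, which the authors computed from read number and gene length. They carry no counts, so the count model of the study could not be the test. Whole reads were recovered for 95.9% to 96.7% of values (within 0.01 of a whole number), giving 15404379 to 17300189 reads per library. The number of reads limits the precision of low values.

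Genes with at least 1 TPM in at least 2 libraries (21871) were fitted as log2(TPM + 1) over the 6 groups in limma 3.58.1 (R 4.3.3), with a mean-variance trend and Benjamini-Hochberg adjustment. Calls needed an adjusted p under 0.05 and a 2-fold change. Fold changes on this scale understate those of low genes. Values after ± are SE for log2 changes and SD for TPM. The replicates are given as biological, from 1 line per genotype. The test was checked on simulated data. Genes were named if they were among the 10 largest wild-type ratios or day 1 means, the 5 most extreme in knockout minus wild-type at day 1 or in each knockout step, on a pathway list, or nearest a threshold. Alternatives were another pseudocount, other filters, scalings and thresholds, voom on recovered reads, a replicate block, and leaving out each library. The members and lists were chosen with earlier results of these data known.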

Additional observations from a re-analysis of the deposited data

Results flagged for a closer look

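*Sertad4* and *Rnf144b* moved in opposite directions in the genotypes from day 1 to day 3. In all 3 wild-type libraries at day 3 both genes lay below all 3 at day 1, and in the knockout all 3 lay above. The knockout log2 change of *Sertad4* was 1.17, called by limma (adjusted p = 7.07e-05), and that of *Rnf144b* was 0.41, not called (adjusted p = 0.294). The wild-type values chose the genes, so the difference between the genotypes was not tested.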

How the results depend on the processing

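Of 133 recomputed values of the main results, 122 were labelled as kept, 10 as moved and 1 as reversed. A count was kept if it lay within 1.5 times the main count. A median difference was kept if it moved by less than the SD over single knockout libraries. Of 2793 recomputed values of named genes, 2702 kept their call or lack of one, 27 lost a call and 64 gained one. Among values called in either fit, 0 turned direction, and sign changes of genes called in neither were not counted. With the adjusted p alone, 113 genes differed between day 3 and day 0 in the knockout (69 higher, 44 lower) and 133 made a peak. The matching shares over all genes tested were not computed for the calls under this or the other alternatives. The thresholds gave 416 genes at a fold of 1.5, 67 at a fold of 3 and 114 at a minimum of 20 TPM. The median knockout minus wild-type difference at day 0 was -0.038 after quantile normalization and turned to 0.00058 after scaling to an equal median, and at day 1 it was -0.36 and -0.28. Leaving out each library gave 165 to 182 genes by the thresholds, medians of -0.23 (without wild-type day 0 replicate 1) to -0.014 (without replicate 2) at day 0, -0.53 to -0.50 at day 1 and 0.19 to 0.24 at day 3, and in the knockout 120 to 125 changes from day 0 to day 1, 97 to 105 from day 1 to day 3, 57 to 61 from day 0 to day 3, 74 to 82 peaks and 66 to 77 genes meeting the thresholds. On the 165 genes chosen without wild-type day 0 replicate 1, an alternative added after seeing the data, the knockout counts were 126, 98, 57 and 82. With the replicate block the counts were 125, 104, 58 and 81, as without it, and same-numbered libraries did not deviate together (correlations of -0.13 to 0.124), so the numbers were not taken as pairs. With voom on the recovered reads, 96 genes made a peak, and 40 were higher and 35 lower at day 3 than at day 0. The causes were not tested, and low read numbers limit genes such as *Gm17720*.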

Other observations

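A further 18 protein-coding genes met the thresholds in the knockout and not in wild-type cells, and 16 of them also had their highest wild-type mean at day 1. *Gpx4*, the enzyme that reduces lipid peroxides, had means of 451, 950 and 571 TPM in wild-type cells and 485, 1228 and 535 TPM in the knockout at day 0, 1 and 3. *Mafa*, a bZIP factor of beta cells, had means of 8.12, 15.5 and 2.12 TPM in wild-type cells and 6.40, 22.0 and 2.20 TPM in the knockout. *Dleu7* had means of 4.72, 45.9 and 28.8 TPM and 4.98, 51.8 and 24.5 TPM. *Rps27rt*, a copy of a ribosomal protein gene whose reads can be split with its parent, had its highest wild-type mean at day 0 (825 TPM), and its knockout rise did not pass limma's test (adjusted p = 0.115).

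Outside the protein-coding genes, 39 genes met the same thresholds in wild-type cells, among them 11 lincRNAs, 7 miRNA genes and 6 processed pseudogenes, and 12 of the 39 made a full knockout peak. The lincRNA *Gm13174* had means of 0, 25.4 and 0.351 TPM in wild-type cells and 0.656, 11.9 and 2.05 TPM in the knockout, where it rose (log2 change 3.10, adjusted p = 0.001) and fell (-2.43, adjusted p = 0.00326).

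Several pathway lists held 0 of the 177 genes. In the knockout, 11 of the 18 naive pluripotency genes fell from day 0 to day 1, and 19 of the 22 endoderm genes and 19 of the 24 cytoskeleton and adhesion genes rose from day 1 to day 3. Of the 20 tested Atf4 targets of the amino acid and unfolded protein stress response, 10 fell and 1 rose from day 1 to day 3.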
